A study of Mus musculus with 9 samples.

Results

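Transcripts of 10 core and naive pluripotency factors were followed in mouse E14 embryonic stem cells with stable knockdown of Fam60a or of Sin3a. The genes were Pou5f1, Sox2, Nanog, Klf4, Klf2, Esrrb, Zfp42, Prdm14, Tfcp2l1 and Tbx3, taken by name from 37990 genes listed in the count tables. All 10 were found, and all 10 passed the filter on low counts, as did 14465 genes in total. The series holds 9 RNA-seq libraries of total RNA in 3 groups of 3. Cells of the first group carried a lentiviral pLKO.1 hairpin against Fam60a, those of the second one against Sin3a, and those of the third a scrambled hairpin without a target. All 3 groups were the same E14 line, transduced in parallel, selected with puromycin and grown on gelatin in serum with leukaemia inhibitory factor (LIF). The sample titles name the third group T2SC, and it was taken as the scrambled control by elimination. A name inside the tables of the Fam60a group carries another number after Fam60a than the sample titles do, so the labels do not settle which hairpin it was. The labels call the replicates biological, but do not say whether each came from a separate transduction.

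Sin3a organises a corepressor complex that carries histone deacetylases, and the protein of Fam60a (Sinhcaf in the GENCODE M21 annotation) is a further subunit of it. Pou5f1 (Oct4) and Sox2 bind DNA side by side and, with Nanog, form the core of the transcription network that keeps embryonic stem cells undifferentiated. Around this core stand the factors of the naive state, the state of the preimplantation epiblast. Klf4, Tfcp2l1 and Tbx3 respond to LIF signalling, Esrrb is released when the repressor Tcf7l1 is relieved, and Klf2 protein is destabilised by ERK signalling. Prdm14 represses FGF receptor and de novo DNA methyltransferase genes. Zfp42 (Rex1) is widely used as a marker of the naive state.

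Total counts, the depth behind every value, were 6344213 to 7674887 reads in the Fam60a knockdown, 2607872 to 6560637 in the Sin3a knockdown and 6072157 to 6896141 in the controls. Fam60a measured 5.59, 6.55 and 5.06 CPM (read counts scaled to a common library size with TMM factors) in its own knockdown, against 13.4, 14.02 and 13.1 CPM in the controls, and fell to 42.5% of the control mean (edgeR adjusted p = 0.028), a call that held in 7 of 18 alternative fits (adjusted p up to 0.133). Sin3a measured 131, 136 and 111 CPM in its own knockdown, against 311, 281 and 268 CPM in the controls, and fell to 43.8% (adjusted p = 0.00149). Sin3a was also lower in every Fam60a knockdown library than in every control, with 227, 216 and 207 CPM, or 75.6% of the control mean. That log2 fold change of -0.40 ± 0.11 did not pass (SE, adjusted p = 0.0964), but did in 7 of 18 alternative fits. Fam60a in the Sin3a knockdown had a log2 fold change of 0.20 ± 0.22 (SE, adjusted p = 0.609). Sin3a knockdown replicate 3 stood apart from the other libraries. It held 2607872 reads, the fewest of all, and 90 reads of the mitochondrial genome against 6268 to 7118 in the other 8 libraries. With the tested genes put in 5 equal bins by transcript GC content, its log2 level relative to replicates 1 and 2 of its group had a median of -0.99 in the bin lowest in GC and of 0.65 in the highest. Values without this library are therefore given beside the main ones. It also enters the shared estimate of the spread, and so bears on results of the Fam60a knockdown.

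Promoters are shown for Nanog, Zfp42 and Tfcp2l1, whose windows hold an octamer-type or a Klf-type match, and for Klf2 and Klf4, related genes of which 1 was called. RefSeq promoters (GRCm38.p6, 250 bases before to 50 bases after the annotated start) were matched for 8 of the 10 genes. Capitals mark the letters searched on both strands: TTTGCAT and ACAATG with 1 base between, the composite octamer and Sox element, ATGCAAAT, the octamer, GGGCGTGG, a Klf-type box, and GGGCGG, the GC box. No listed string contains another, and the composite overlaps the octamer where an A precedes it. TCAAGGTCA, an Esrrb-type element, and TTCCNGGAA, a STAT-type element, were also searched and matched none of the windows of these 8 genes.
Nanog, chr6:122707239-122707538, plus strand: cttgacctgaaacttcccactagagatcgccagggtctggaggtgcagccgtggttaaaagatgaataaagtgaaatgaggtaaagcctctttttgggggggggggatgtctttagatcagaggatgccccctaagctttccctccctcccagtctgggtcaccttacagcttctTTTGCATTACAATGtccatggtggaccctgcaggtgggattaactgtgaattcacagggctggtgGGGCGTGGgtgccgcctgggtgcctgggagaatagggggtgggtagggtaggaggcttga
Zfp42, chr8:43306960-43307259, minus strand: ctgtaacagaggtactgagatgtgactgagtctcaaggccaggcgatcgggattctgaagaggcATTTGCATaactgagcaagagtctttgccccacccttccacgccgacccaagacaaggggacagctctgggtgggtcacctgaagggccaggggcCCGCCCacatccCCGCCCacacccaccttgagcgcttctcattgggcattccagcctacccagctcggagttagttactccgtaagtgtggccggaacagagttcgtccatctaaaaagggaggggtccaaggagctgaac
Klf2, chr8:72318812-72319111, plus strand: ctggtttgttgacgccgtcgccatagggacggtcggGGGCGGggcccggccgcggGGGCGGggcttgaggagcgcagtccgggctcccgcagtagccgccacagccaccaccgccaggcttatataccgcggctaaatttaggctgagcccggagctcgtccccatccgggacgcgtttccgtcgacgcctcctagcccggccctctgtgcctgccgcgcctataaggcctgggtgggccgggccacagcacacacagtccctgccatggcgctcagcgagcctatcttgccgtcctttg
Klf4, chr4:55532426-55532725, minus strand: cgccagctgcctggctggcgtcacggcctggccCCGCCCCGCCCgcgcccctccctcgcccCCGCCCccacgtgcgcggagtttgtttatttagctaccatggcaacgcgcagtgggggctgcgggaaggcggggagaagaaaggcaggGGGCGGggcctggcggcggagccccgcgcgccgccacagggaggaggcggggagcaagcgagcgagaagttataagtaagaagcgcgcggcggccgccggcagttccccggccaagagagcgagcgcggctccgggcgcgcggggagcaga
Tfcp2l1, chr1:118627695-118627994, plus strand: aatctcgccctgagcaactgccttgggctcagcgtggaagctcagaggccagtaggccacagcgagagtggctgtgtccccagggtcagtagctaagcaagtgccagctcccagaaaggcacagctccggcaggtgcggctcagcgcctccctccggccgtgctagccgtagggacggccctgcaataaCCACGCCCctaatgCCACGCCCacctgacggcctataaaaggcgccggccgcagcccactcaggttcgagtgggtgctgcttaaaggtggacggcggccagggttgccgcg
The composite element lay 75 bases before the start in this Nanog window and was found in 2 of 32851 promoter windows (0.00609%), both of them windows of Nanog. These 2 windows overlap and hold the same site, which lies 151 bases before the start in the second. The Klf-type box lay 10 bases before the start in the Nanog window shown, and 61 and 47 bases before that of Tfcp2l1, and occurred in 5.33% of all windows. The octamer of Zfp42 lay 186 bases before its start and occurred in 1.74% of windows. Klf2 held 2 GC boxes and Klf4 held 4, a string present in 35.7% of windows. The GC content of these windows was 69.3% for Klf2 and 74.3% for Klf4, 65.3% for Tfcp2l1, 54.3% for Nanog and 57.7% for Zfp42. These matches are strings of letters in a window, and binding was not measured.

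Of the 10 factors, 1 passed the test in the Fam60a knockdown against the controls: Prdm14 fell and 0 rose. Over all tested genes 2.92% were called there (1.49% higher and 1.44% lower, edgeR adjusted p under 0.05). Klf2 was the 1 factor that passed in the Sin3a knockdown against the controls, where it fell and 0 rose, and 10.2% of all genes were called (3.91% higher and 6.28% lower). Between the Fam60a and the Sin3a knockdown 0 of the 10 passed, against 3.06% of all genes (2.18% higher and 0.878% lower). There 1 of the 10 (Zfp42) had an unadjusted p under 0.05 in edgeR, against 18.1% of all genes, and 0 passed with DESeq2. At that unadjusted level 3 of 10 stood in Fam60a knockdown cells (15.7% of all genes) and 3 of 10 in Sin3a knockdown cells (25.9%). In the Sin3a knockdown 1 in 10 is near the share over all genes, and with 10 genes 1 call is the smallest count above 0. A bulk library cannot tell fewer cells of a type from less RNA per cell, here and in the results that follow.

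The number of calls moved with the fit. With Sin3a knockdown replicate 3 left out, 3 of 10 were called in the Fam60a knockdown (Nanog, Klf2 and Prdm14, all lower), against 16.9% of all genes. The count was then also 3 of 10 in the Sin3a knockdown (Klf2 and Prdm14 lower, Tbx3 higher), against 24.5% of all genes, and 2 of 10 between the knockdowns (Klf2 and Klf4), against 14.7%. With the replicate number as a block, Prdm14 alone was called in the Fam60a knockdown, where 6.13% of all genes were. Under this block Klf2 and Prdm14 were called in the Sin3a knockdown (15% of all genes) and 0 of 10 between the knockdowns (4.65%). With the block and without that library 7 of 10 were called in the Fam60a knockdown (Sox2, Nanog, Klf4, Klf2, Zfp42 and Prdm14 lower, Tbx3 higher), 3 in the Sin3a knockdown and 4 between them (Nanog, Klf4 and Prdm14 lower, Klf2 higher), against 39.6, 47.3 and 36.1% of all genes. With DESeq2 the calls were 2 (Klf2 and Prdm14), 3 (with Tbx3) and 0, against 8.16, 17.3 and 9.21%. Fits of the 6 libraries of each comparison gave 2, 0 and 0, against 12.8, 5.25 and 0%. A correction for GC content gave 1, 2 and 0, against 4.88, 14.4 and 5.68%, and 3, 3 and 1 without that library, against 17.1, 23.5 and 13.4%.

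**Figure D1:**
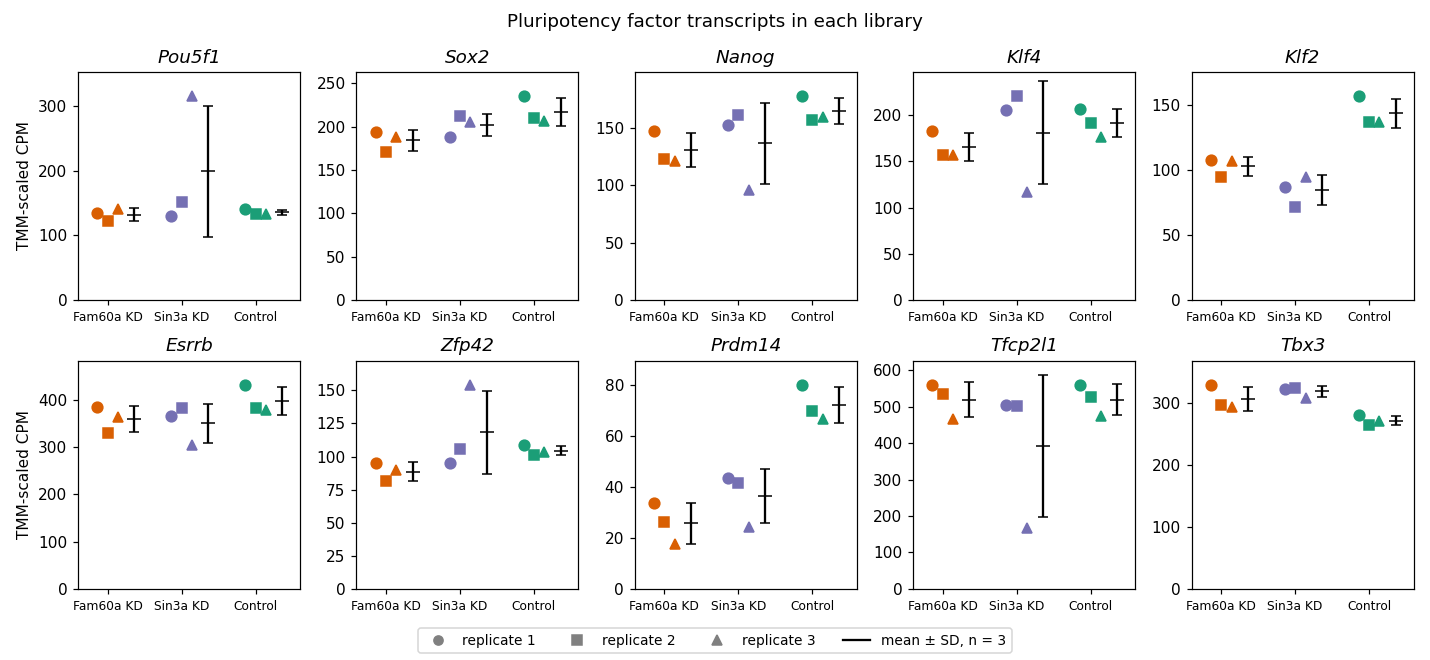
CPM of the 10 factors in each library, by group, with each replicate as a symbol and the mean ± SD of 3 libraries in black. Prdm14 and Klf2 lie lower in every library of both knockdowns than in every control, and Sin3a knockdown replicate 3 lies far from its group for Pou5f1, Nanog, Klf4, Zfp42, Prdm14 and Tfcp2l1.

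By ranges, the CPM of the Fam60a knockdown libraries did not overlap the controls for 6 of the 10 factors, lower for Sox2, Nanog, Klf2, Zfp42 and Prdm14 and higher for Tbx3. Groups without overlap made up 34.4% of all tested genes in this comparison. In the Sin3a knockdown 3 of 10 were apart from the controls (Klf2 and Prdm14 lower, Tbx3 higher), against 33.2% of all genes. Between the knockdowns only Zfp42 of the 10 was apart, against 25.5% of all genes, and its nearest libraries held 95.01 and 95.4 CPM. The median log2 fold change of the 10 factors was -0.22 in the Fam60a knockdown, -0.14 in the Sin3a knockdown and -0.10 between them. The medians over all tested genes were -0.021, -0.012 and 0.014 in the same order. Both knockdowns were set against the same 3 control libraries, so their fold changes are not independent of each other.

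Prdm14 (ENSMUSG00000042414, GRCm38 chromosome 1, 13113457 to 13127163, minus strand), a zinc finger factor of the naive state, had the lowest fold change of the 10 in both knockdowns with all 9 libraries. It measured 33.5, 26.2 and 17.6 CPM in replicates 1, 2 and 3 of the Fam60a knockdown and 43.6, 41.4 and 24.4 CPM in the Sin3a knockdown, against 80.0, 70.0 and 66.6 CPM in the controls. Every knockdown library lay below every control, and replicate 3 was the lowest of its group in all 3 groups. In the Fam60a knockdown its mean was 25.8 ± 8.0 CPM, against 72.2 ± 6.96 CPM in the controls (SD, n = 3 each), or 35.7% of control. The log2 fold change was -1.49 ± 0.28 (SE, edgeR adjusted p = 0.0291), and the differences within replicate numbers 1, 2 and 3 were -1.25, -1.41 and -1.90. Prdm14 in the Sin3a knockdown measured 36.5 ± 10.5 CPM (SD, n = 3), or 50.5% of control, with a log2 fold change of -0.97 ± 0.28 (SE) that did not pass (edgeR adjusted p = 0.0586). There the differences within numbers 1, 2 and 3 were -0.87, -0.75 and -1.44, and with the replicate block the adjusted p was 0.0142. When Sin3a knockdown replicate 3 was left out, the log2 fold change there was -0.76 ± 0.22 (SE, adjusted p = 0.0336). Set against the Sin3a knockdown, the Fam60a knockdown had a log2 fold change of -0.52 ± 0.28 (SE, adjusted p = 0.366). The call in the Fam60a knockdown rested on each of the 6 libraries compared. It ended without Fam60a knockdown replicate 1 (adjusted p = 0.0565), 2 (0.115) or 3 (0.0921) and without control replicate 1 (0.124), 2 (0.104) or 3 (0.0623), and its 18 alternative fits spanned 4.2e-06 to 0.124. Calls over all genes also dropped in these 6 fits, to 92, 31, 146, 11, 46 and 222 in the same order, against 423. The log2 fold change of Prdm14 without 1 library stayed between -1.72 and -1.27. Prdm14 was called in the Sin3a knockdown without Fam60a knockdown replicate 3 (adjusted p = 0.0432), and the 18 alternative fits there spanned 0.000257 to 0.18.

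Klf2 and Klf4 encode Krüppel-like zinc finger factors that can stand in for each other in embryonic stem cells. Klf2 (ENSMUSG00000055148, GRCm38 chromosome 8, 72319033 to 72321656, plus strand) measured 108, 94.7 and 107 CPM in Fam60a knockdown cells and 87.2, 72.1 and 95.1 CPM in Sin3a knockdown cells, against 157, 138 and 137 CPM in the controls (replicates 1 to 3). All 6 knockdown libraries lay below all 3 controls. Klf2 fell in the Sin3a knockdown, to 84.8 ± 11.7 CPM, against 144 ± 11.5 CPM in the controls (SD, n = 3 each), or 58.9% of control. Its log2 fold change there was -0.77 ± 0.14 (SE, edgeR adjusted p = 0.0106), with -0.85, -0.93 and -0.52 within numbers 1, 2 and 3. Leaving out Sin3a knockdown replicate 3 gave -0.85 ± 0.11 (SE, adjusted p = 0.00112). The call ended without control replicate 1 (adjusted p = 0.0731) or control replicate 2 (0.0523) and in a fit of its own 6 libraries (0.0517), and the 18 alternative fits spanned 1.82e-06 to 0.0731. In the Fam60a knockdown Klf2 measured 103 ± 7.36 CPM (SD, n = 3), or 71.8% of control. That log2 fold change of -0.48 ± 0.13 did not pass (SE, adjusted p = 0.0994), but did without Sin3a knockdown replicate 3, at -0.47 ± 0.09 (SE, adjusted p = 0.0107), and the 18 alternative fits spanned 3.25e-05 to 0.441.

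Klf4 (ENSMUSG00000003032, GRCm38 chromosome 4, 55527143 to 55532466, minus strand) did not pass in either knockdown. It measured 183, 157 and 157 CPM in Fam60a knockdown cells and 206, 220 and 117 CPM in Sin3a knockdown cells, against 207, 192 and 176 CPM in the controls. The groups overlapped, and Sin3a knockdown replicate 3 was the lowest of all 9 libraries. The log2 fold changes were -0.21 ± 0.21 in Fam60a knockdown cells (SE, adjusted p = 0.799) and -0.07 ± 0.21 in Sin3a knockdown cells (SE, adjusted p = 0.853). Once Sin3a knockdown replicate 3 was left out, the second was 0.16 ± 0.09 (SE, adjusted p = 0.236), of the opposite sign. Between the knockdowns, and without that library, Klf4 was lower in the Fam60a knockdown by a log2 value of -0.36 ± 0.09 (SE, adjusted p = 0.0291), and Klf2 was higher there by 0.38 ± 0.11 (SE, adjusted p = 0.0466). With all 9 libraries neither passed, at -0.14 ± 0.21 for Klf4 (SE, adjusted p = 0.757) and 0.29 ± 0.14 for Klf2 (SE, adjusted p = 0.306). A test of Klf2 against Klf4 within a knockdown was not made.

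The core factors Pou5f1, Sox2 and Nanog did not pass in either knockdown with all libraries. Pou5f1 (ENSMUSG00000024406, GRCm38 chromosome 17, 35506018 to 35510772, plus strand) measured 134, 122 and 141 CPM in the Fam60a knockdown, against 141, 134 and 133 CPM in the controls, and its log2 fold change was -0.04 ± 0.29 (SE, adjusted p = 0.993). Libraries of the Sin3a knockdown held 131, 152 and 316 CPM, with a log2 fold change of 0.54 ± 0.29 (SE, adjusted p = 0.274). Replicate 3 was the highest of all 9 libraries, and the log2 fold change was 0.05 ± 0.09 without that library (SE, adjusted p = 0.691). With 8 libraries the fold change of Pou5f1 in the Fam60a knockdown was -0.03 ± 0.08 on the log2 scale (SE).

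Sox2 (ENSMUSG00000074637, GRCm38 chromosome 3, 34650405 to 34652461, plus strand) measured 194, 171 and 188 CPM in Fam60a knockdown cells and 188, 213 and 205 CPM in Sin3a knockdown cells, against 235, 210 and 206 CPM in the controls. The Fam60a knockdown lay below the controls in every library, and the gap between its highest library and the lowest control was smaller than the range of the controls. Its log2 fold changes were -0.24 ± 0.10 in Fam60a knockdown cells (SE, adjusted p = 0.312) and -0.10 ± 0.10 in Sin3a knockdown cells (SE, adjusted p = 0.566), the second being -0.11 ± 0.08 without replicate 3 (SE, adjusted p = 0.359). Nanog (ENSMUSG00000012396, GRCm38 chromosome 6, 122707489 to 122714633, plus strand) measured 147, 123 and 121 CPM in Fam60a knockdown cells and 152, 161 and 95.9 CPM in Sin3a knockdown cells, against 177, 157 and 160 CPM in the controls. Its log2 fold change in the Fam60a knockdown was -0.34 ± 0.19 (SE, adjusted p = 0.466), and the differences within numbers 1, 2 and 3 were -0.27, -0.36 and -0.40. Without Sin3a knockdown replicate 3 Nanog fell by 0.33 on the log2 scale in the Fam60a knockdown (a log2 fold change of -0.33 ± 0.09, SE, adjusted p = 0.0316). It was called there in 3 of 18 alternative fits, all without that library, and the 18 spanned 0.00121 to 0.862. The edgeR fit of the 6 libraries of this comparison did not call it (adjusted p = 0.056). For the Sin3a knockdown the log2 fold change of Nanog was -0.26 ± 0.19 with all libraries (SE, adjusted p = 0.411) and -0.07 ± 0.10 without replicate 3 (SE, adjusted p = 0.636).

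**Figure D2:**
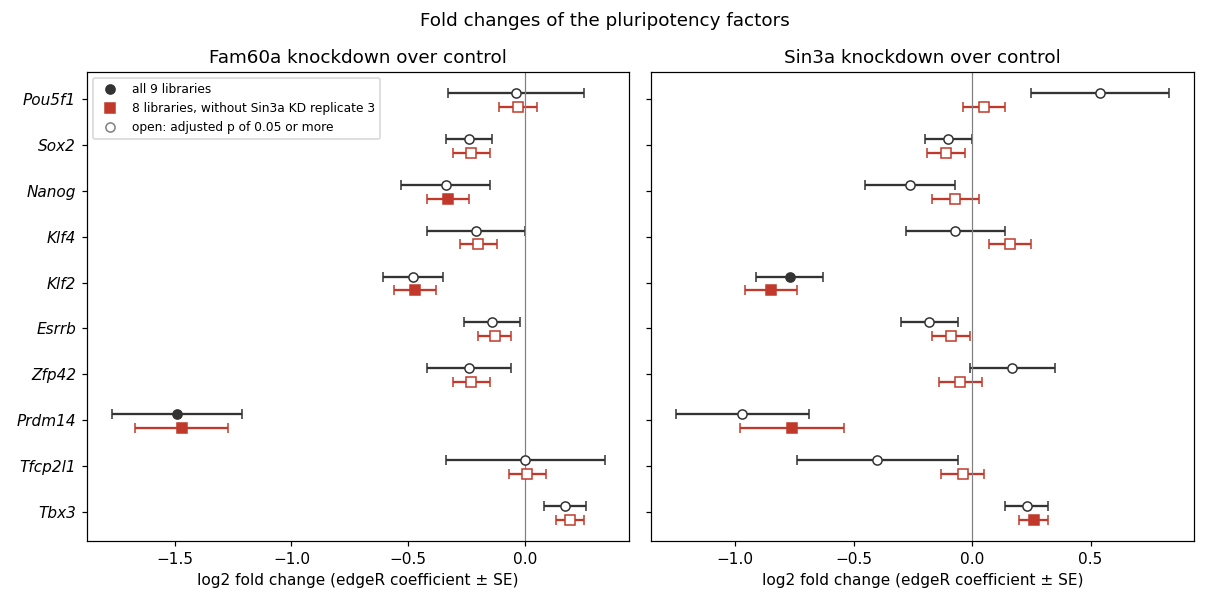
Log2 fold change (edgeR coefficient ± SE) of each factor in the Fam60a knockdown (left) and the Sin3a knockdown (right) over the controls, from all 9 libraries (black circles) and from 8 libraries without Sin3a knockdown replicate 3 (red squares). Filled symbols passed an adjusted p of 0.05. Prdm14 in Fam60a knockdown cells (-1.49) and Klf2 in Sin3a knockdown cells (-0.77) are the filled black circles.

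Esrrb, Tfcp2l1 and Tbx3 are DNA-binding factors that sustain self-renewal under LIF. Esrrb (ENSMUSG00000021255, GRCm38 chromosome 12, 86361117 to 86521628, plus strand), an orphan nuclear receptor, measured 384, 330 and 364 CPM in Fam60a knockdown cells and 365, 382 and 303 CPM in Sin3a knockdown cells, against 431, 383 and 378 CPM in the controls. The ranges overlapped, and neither log2 fold change passed (-0.14 ± 0.12, adjusted p = 0.71, and -0.18 ± 0.12, adjusted p = 0.381, SE, for the Fam60a and the Sin3a knockdown). Without Sin3a knockdown replicate 3 the second was -0.09 ± 0.08 (SE, adjusted p = 0.472). Tfcp2l1 (ENSMUSG00000026380, GRCm38 chromosome 1, 118627945 to 118685168, plus strand), a grainyhead-family factor, measured 558, 534 and 467 CPM in the Fam60a knockdown, against 559, 526 and 474 CPM in the controls. Same-numbered libraries differed by at most 0.02 on the log2 scale, and the log2 fold change was 0.00 ± 0.34 with all libraries and 0.01 ± 0.08 without Sin3a knockdown replicate 3 (SE). Tfcp2l1 in the Sin3a knockdown measured 505, 503 and 167 CPM, with replicate 3 the lowest of all 9 libraries. Its log2 fold change of -0.40 ± 0.34 (SE, adjusted p = 0.491) became -0.04 ± 0.09 without replicate 3 (SE, adjusted p = 0.755).

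Tbx3 (ENSMUSG00000018604, GRCm38 chromosome 5, 119670669 to 119684724, plus strand), a T-box factor, was the one member with every library of both knockdowns above every control. It measured 329, 296 and 294 CPM in Fam60a knockdown cells and 323, 325 and 308 CPM in Sin3a knockdown cells, against 280, 264 and 271 CPM in the controls. The means were 307 ± 19.4 and 319 ± 9.05 CPM in the Fam60a and the Sin3a knockdown, against 272 ± 8.05 CPM in the controls (SD, n = 3 each). The log2 fold changes were 0.17 ± 0.09 (SE, adjusted p = 0.427) in Fam60a knockdown cells and 0.23 ± 0.09 (SE, adjusted p = 0.148) in Sin3a knockdown cells. Leaving out Sin3a knockdown replicate 3, Tbx3 rose in the Sin3a knockdown, by 0.26 ± 0.06 on the log2 scale (SE, adjusted p = 0.0197), and did not pass in the Fam60a knockdown (0.19 ± 0.06, SE, adjusted p = 0.0557).

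Zfp42 (ENSMUSG00000051176, GRCm38 chromosome 8, 43295063 to 43306980, minus strand), the zinc finger gene Rex1, measured 95.01, 81.4 and 89.5 CPM in Fam60a knockdown cells and 95.4, 106 and 154 CPM in Sin3a knockdown cells, against 109, 101 and 104 CPM in the controls. The Fam60a knockdown lay below both other groups without overlap, at 84.8% of the control mean and 74.9% of the Sin3a knockdown mean, in which replicate 3 was the highest of all 9 libraries. The nearest libraries of the Fam60a and the Sin3a knockdown were both replicate 1, with 95.01 and 95.4 CPM from 629 and 626 reads. Its log2 fold changes were -0.24 ± 0.18 over the controls (SE, adjusted p = 0.651) and -0.41 ± 0.18 over the Sin3a knockdown (SE, adjusted p = 0.264), and neither passed. The second was -0.17 ± 0.09 without Sin3a knockdown replicate 3 (SE, adjusted p = 0.213). Zfp42 in the Sin3a knockdown had a log2 fold change over the controls of 0.17 ± 0.18 (SE, adjusted p = 0.571), which became -0.05 ± 0.09 without replicate 3 (SE, adjusted p = 0.686).

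**Figure D3:**
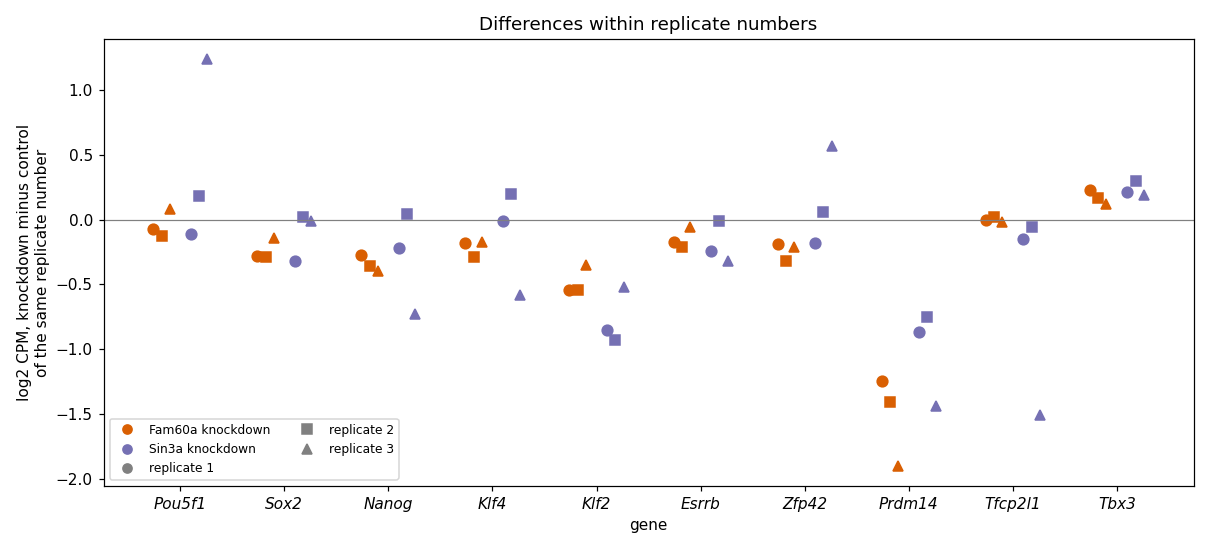
Difference in log2 CPM between each knockdown library and the control library of the same replicate number, for the 10 factors, with the replicate number as the symbol. All 6 differences are negative for Prdm14 (-0.75 to -1.90) and Klf2 (-0.35 to -0.93) and positive for Tbx3 (0.12 to 0.30), and the triangles of the Sin3a knockdown (replicate 3) lie apart for Pou5f1 (1.24) and Tfcp2l1 (-1.51).

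Levels of different genes were compared as CPM per kilobase of annotated exon. In the controls Sox2 stood highest with 105 ± 7.62, followed by Klf2 with 77.9 ± 6.20, Nanog with 73.4 ± 4.96, Esrrb with 65.7 ± 4.84 and Klf4 with 62.8 ± 4.995 CPM per kilobase (SD, n = 3). Pou5f1 followed with 60.5 ± 1.89, Zfp42 with 55.5 ± 1.95, Tfcp2l1 with 55.1 ± 4.55, Tbx3 with 41.0 ± 1.22 and Prdm14 with 28.2 ± 2.72 CPM per kilobase. Sox2 did not overlap Klf2, and neither did Pou5f1 overlap Zfp42, Tfcp2l1 overlap Tbx3, or Tbx3 overlap Prdm14. The other neighbours in this order overlapped in their libraries. On this scale the control means were higher than those of 99.9% of 14132 ranked genes for Sox2 and 81.8% for Prdm14, with the other 8 factors in between. Klf2 ranked 5 of 10 in the Fam60a knockdown, with 55.9 ± 3.99, and 8 of 10 in the Sin3a knockdown, with 45.9 ± 6.33 CPM per kilobase, against 2 of 10 in the controls. It overlapped its neighbours in rank in both knockdowns. Prdm14 ranked 10 of 10 in every group, with 10.0 ± 3.12 and 14.2 ± 4.11 CPM per kilobase in the Fam60a and the Sin3a knockdown, against 28.2 ± 2.72 in the controls, and never overlapped the gene above it.

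**Figure D4:**
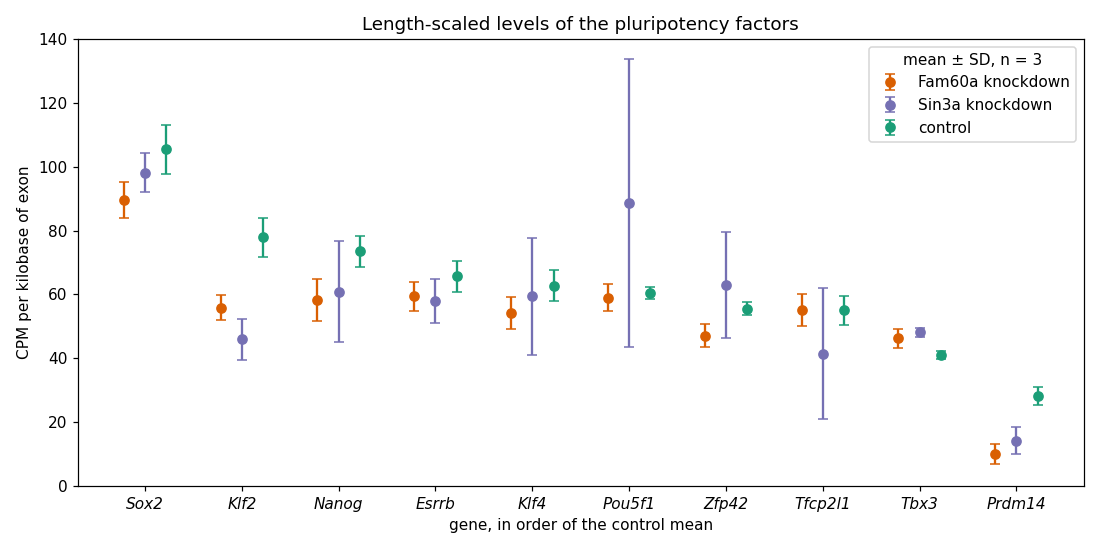
Length-scaled level (CPM per kilobase of annotated exon, mean ± SD of 3 libraries) of each factor in the 3 groups, ordered by the control mean. Klf2, second in the controls with 77.9, is at 55.9 in Fam60a knockdown cells and 45.9 in Sin3a knockdown cells, and Prdm14 is last in every group.

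Duplicate reads had been removed before counting, which can lower the levels of densely covered genes. Control libraries held on average 0.693 reads per exon base for Sox2, 0.511 for Klf2, 0.483 for Nanog, 0.398 for Pou5f1 and 0.185 for Prdm14. Where duplicates are removed by position, each start position on a strand can keep 1 read, so differences in densely covered genes can be understated. Pou5f1 held 777 to 951 reads in all 9 libraries, although their totals ranged from 2607872 to 7674887. Its reads in Sin3a knockdown replicate 3 were 0.928 times the mean of replicates 1 and 2, whereas the total reads of the library were 0.432 times theirs. The part of read removal in these values was not tested.

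In Sin3a knockdown replicate 3 the 10 factors differed from replicates 1 and 2 of the group by between -1.59 (Tfcp2l1) and 1.16 (Pou5f1) on the log2 scale. Pou5f1, with a transcript GC content of 57.6%, and Klf2, with 61.6%, lay in the highest of the 5 GC bins, whose median was 0.65, and stood at 1.16 and 0.26. Tfcp2l1 (47.0%) and Nanog (45.8%) stood at -1.59 and -0.71, in a bin with a median of -0.34. Zfp42, in the same bin with 46.4%, stood at 0.61, on the other side of it. Klf4 (54.6%) stood at -0.86 where the median of the bin was 0.30, and Prdm14 (50.5%) at -0.79 where it was 0.03. Exon length also moved with the deviation, with a median of 0.19 in the shortest of 5 length bins and -0.32 in the longest. Tfcp2l1 has 9438 bases of annotated exon, in the longest bin, and Pou5f1 has 2248, in the shortest. The parts of GC content, length and depth in the deviations of single factors were not tested.

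**Figure D5:**
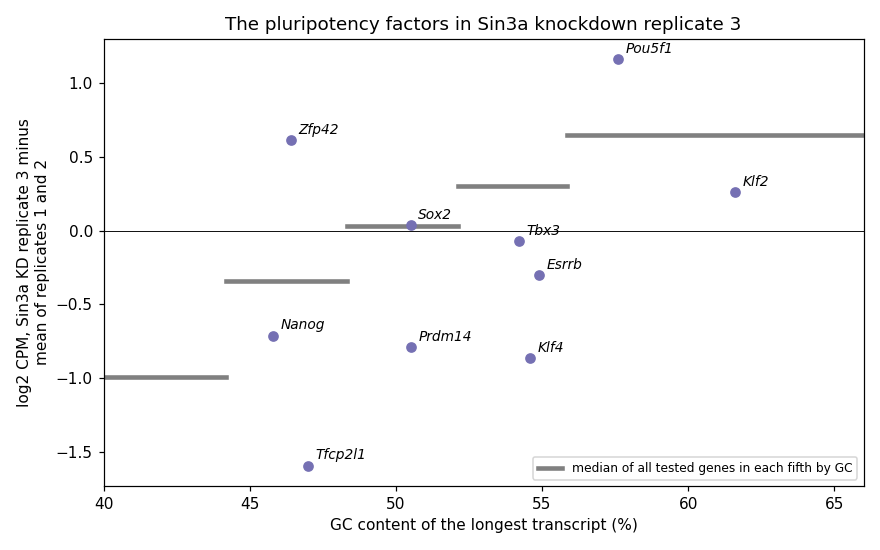
Log2 CPM of each factor in Sin3a knockdown replicate 3 minus the mean of replicates 1 and 2, against the GC content of its longest transcript. Grey bars are the medians of all tested genes in 5 equal groups by GC content, from -0.99 to 0.65, and the factors scatter on both sides of them, from Tfcp2l1 at -1.59 to Pou5f1 at 1.16.

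Other genes of the network were read from lists. In the fit of all libraries without the block, 2.92% of all tested genes were called in the Fam60a and 10.2% in the Sin3a knockdown. At an unadjusted p under 0.05 in edgeR the shares were 15.7% and 25.9%. Of 12 further naive genes, 0 passed in the Fam60a knockdown by edgeR (0 also at an unadjusted p under 0.05), and 1 rose and 1 fell in the Sin3a knockdown. Gbx2, a homeobox gene that promotes self-renewal, rose with 139, 142 and 182 CPM in the Sin3a knockdown, against 117, 105 and 105 CPM in the controls (log2 fold change 0.50 ± 0.13, SE, adjusted p = 0.0444, and 0.37 without replicate 3). Pecam1, a surface adhesion molecule of naive cells, fell with 75.5, 69.6 and 31.3 CPM in the Sin3a knockdown, against 148, 162 and 121 CPM in the controls (log2 fold change -1.27 ± 0.32, SE, adjusted p = 0.0371, and -0.98 without replicate 3). Of 15 general pluripotency genes 1 fell in the Fam60a and 2 in the Sin3a knockdown, and 0 rose. Tcf7l1, the repressor that acts against Esrrb and Nanog, fell in both, with log2 fold changes of -0.67 ± 0.11 (SE, adjusted p = 0.0172) in the Fam60a and -0.50 ± 0.11 (SE, adjusted p = 0.0235) in the Sin3a knockdown. Fgf4, the ligand that drives ERK signalling in these cells, fell in the Sin3a knockdown by a log2 fold change of -0.39 ± 0.10 (SE, adjusted p = 0.0335). It had the same value, -0.39 ± 0.10, in the Fam60a knockdown and did not pass there (SE, adjusted p = 0.0646). Of 7 genes of the LIF and STAT3 input, 0 passed in Fam60a knockdown cells by edgeR (2 at an unadjusted p under 0.05) and Socs3, the feedback inhibitor, rose in Sin3a knockdown cells (log2 fold change 0.38 ± 0.10, SE, adjusted p = 0.0436, and 0.32 without replicate 3). The median log2 fold changes of these 3 lists were -0.06, -0.08 and 0.11 in Fam60a knockdown cells and -0.24, -0.04 and 0.26 in Sin3a knockdown cells.

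Of 5 genes that Prdm14 is known to repress, 0 passed in the Fam60a knockdown by edgeR (2 at an unadjusted p under 0.05), where Prdm14 was lowest. Over all genes the shares at that unadjusted level were 15.7% in the Fam60a and 25.9% in the Sin3a knockdown. In the Sin3a knockdown 4 of the 5 stood at that level, and 1 of them rose by adjusted p. That gene was Dnmt3b, a de novo DNA methyltransferase, with 345, 347 and 433 CPM in the Sin3a knockdown, against 219, 221 and 296 CPM in the controls (log2 fold change 0.61 ± 0.16, SE, adjusted p = 0.0396). It measured 322, 303 and 368 CPM in the Fam60a knockdown, and its log2 fold change of 0.43 ± 0.16 did not pass (SE, adjusted p = 0.202). Under the replicate block 1 of the 5 rose in Fam60a knockdown cells (Dnmt3b, adjusted p = 0.0376) and 3 in Sin3a knockdown cells (Dnmt3b, Fgfr1 and Fgfr2). Over all genes 6.13% and 15% were called with the block in the Fam60a and the Sin3a knockdown. Fgfr2, an FGF receptor, measured 134, 111 and 145 CPM in Fam60a knockdown cells and 153, 110 and 128 CPM in Sin3a knockdown cells, against 29.7, 35.9 and 90.7 CPM in the controls. Control replicate 3 stood nearer to the knockdowns than the other controls did. Of the 15 genes of the primed state 13 were tested, of which 0 rose and 1 fell in Fam60a knockdown cells, and 1 rose and 3 fell in Sin3a knockdown cells. Zic2, a zinc finger factor, fell in both (log2 fold changes -1.53 ± 0.21, SE, adjusted p = 0.0108, and -2.38 ± 0.23, SE, adjusted p = 0.00147, in the Fam60a and the Sin3a knockdown). Its relative Zic5 (-1.69 ± 0.39, SE, adjusted p = 0.0266) and the epithelial factor Grhl2 (-1.47 ± 0.28, SE, adjusted p = 0.0135) fell in the Sin3a knockdown. Dnmt3b, which stands in both lists, was the gene that rose. With the replicate block 1 primed gene rose (Dnmt3b) and 2 fell in the Fam60a knockdown, Zic2 and the Wnt effector Lef1 (log2 fold change -2.33, adjusted p = 0.0132).

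The calls of these list genes held in part of the 18 alternative fits. In the Fam60a knockdown Tcf7l1 was called in 12 of them and Zic2 in 15. In the Sin3a knockdown Zic2 was called in all 18, Grhl2 in 15, Zic5, Dnmt3b and Tcf7l1 in 11 each, Pecam1 in 10, Gbx2 and Fgf4 in 8 each and Socs3 in 6. With Sin3a knockdown replicate 3 left out, 16.9% of all genes were called in the Fam60a and 24.5% in the Sin3a knockdown. Of the 7 LIF and STAT3 genes 3 then rose and 1 fell in each knockdown. Of the 13 primed genes 1 rose and 4 fell in the Fam60a, and 3 rose and 5 fell in the Sin3a knockdown. The other lists then had 0 rising and 1 falling (naive), 0 and 2 (general) and 1 and 0 (repressed by Prdm14) in the Fam60a knockdown, and 1 and 1, 0 and 2, and 2 and 0 in the Sin3a knockdown.

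Markers of other cells were read beside these results. In the fit of all libraries without the block, 2.92% of all genes were called in the Fam60a and 10.2% in the Sin3a knockdown. Without Sin3a knockdown replicate 3 these shares were 16.9% and 24.5%. The 10 primitive endoderm markers, of which 0 were under 2 CPM in all libraries, summed to 2626, 2622 and 3740 CPM in the Fam60a knockdown (replicates 1 to 3) and 3102, 3004 and 5886 CPM in the Sin3a knockdown, against 1264, 1607 and 2851 CPM in the controls. Replicate 3 was the highest of its group in all 3 groups. Of these markers 0 passed in Fam60a knockdown cells by edgeR (3 at an unadjusted p under 0.05) and 1 in Sin3a knockdown cells, the lineage factor Gata6 (log2 fold change 1.29 ± 0.30, SE, adjusted p = 0.029). In Sin3a knockdown cells 8 of the 10 had an unadjusted p under 0.05. Over all genes the shares at that level were 15.7% in the Fam60a and 25.9% in the Sin3a knockdown. With the replicate block 4 and 9 rose in the Fam60a and the Sin3a knockdown, where 6.13% and 15% of all genes were called, and without Sin3a knockdown replicate 3 it was 1 and 1, Gata6 in both.

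The 8 trophectoderm markers, with Elf5 under 2 CPM in every library, summed to 164, 158 and 234 CPM in the Fam60a knockdown and 126, 116 and 382 CPM in the Sin3a knockdown, against 108, 94.8 and 187 CPM in the controls. Replicate 3 was again the highest of each group. In replicates 1 and 2 the Sin3a knockdown (126 and 116 CPM) lay above the controls (108 and 94.8 CPM) and below control replicate 3 (187 CPM). In the fit of all libraries without the block 0 of 7 tested passed in either knockdown by edgeR, 3 and 1 of them with an unadjusted p under 0.05 in the Fam60a and the Sin3a knockdown. With the replicate block 4 rose in the Fam60a knockdown (Cdx2, Eomes, Gata3 and Hand1, adjusted p of 0.0285, 0.0321, 0.0472 and 0.0259) and 2 in the Sin3a knockdown (Cdx2 and Hand1, 0.0105 and 0.0217). Without Sin3a knockdown replicate 3 it was 3 (Eomes, Gata3 and Hand1) and 1 (Hand1). The shares over all genes were 6.13% and 15% with the block, and 16.9% and 24.5% without that library.

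The 6 primitive streak markers, with Mixl1 and Wnt3 under 2 CPM, summed to 5.38 to 10.1 and 4.64 to 8.53 CPM in the Fam60a and the Sin3a knockdown, against 7.002 to 7.37 CPM in the controls. Of 3 tested 0 passed in either knockdown by edgeR (0 and 1 at an unadjusted p under 0.05), and Fgf8 fell in the Sin3a knockdown with the replicate block (adjusted p = 0.042) and without replicate 3 (0.0492). The 5 neuroectoderm markers found summed to 78.4, 79.2 and 80.3 CPM in the Fam60a knockdown and 66.3, 59.1 and 139 CPM in the Sin3a knockdown, against 155, 140 and 161 CPM in the controls. Sin3a knockdown replicate 3 was the one knockdown library close to the controls. Tubb3 (log2 fold change -1.43 ± 0.21, SE, adjusted p = 0.0129) fell in the Fam60a knockdown, and Tubb3 (-1.61 ± 0.22, SE, adjusted p = 0.00399) and Pax6 (-2.74 ± 0.30, SE, adjusted p = 0.00202) fell in the Sin3a knockdown. Without Sin3a knockdown replicate 3 these were -1.42, -1.46 and -2.60, and 3 of the 4 tested fell in each knockdown.

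Of the 10 fibroblast markers 5 (Twist2, Postn, Lum, Dcn and Fap) were under 2 CPM in every library. The list summed to 43.1, 53.4 and 52.2 CPM in the Fam60a knockdown and 40.3, 33.8 and 87.7 CPM in the Sin3a knockdown, against 45.5, 85.0 and 49.2 CPM in the controls, with replicate 3 the highest of the Sin3a knockdown. Of 4 tested 0 passed in the Fam60a knockdown by edgeR (2 at an unadjusted p under 0.05), and in the Sin3a knockdown Twist1 rose (1.09 ± 0.27, SE, adjusted p = 0.0341) and Thy1 fell (-1.80 ± 0.29, SE, adjusted p = 0.00816). Without Sin3a knockdown replicate 3 Twist1 rose and Col1a1 fell in the Fam60a knockdown, and Twist1 (0.79) rose and Thy1 (-1.57) and Col1a1 fell in the Sin3a knockdown. The part of other cell types in the levels of the 10 factors was not tested.

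The genes most like each factor were taken by the root mean square difference of centred log2 CPM over the 9 libraries. For Prdm14 they were Nlrp4f, at 0.204, and Shisa2, at 0.208, against a median of 0.77 over all protein-coding genes. Nlrp4f passed in neither knockdown (log2 fold changes -1.33, adjusted p = 0.0593, and -0.90, adjusted p = 0.107, in the Fam60a and the Sin3a knockdown). Shisa2 fell in both (log2 fold changes -1.97, adjusted p = 0.0122, and -1.26, adjusted p = 0.0254, in the Fam60a and the Sin3a knockdown). For Klf2 they were Dlgap3, at 0.116, and Sfxn5, at 0.127, against a median of 0.49. For Pou5f1 they were Bax, at 0.025, and Cox4i1, at 0.035, against a median of 0.55. For the other 7 factors the closest gene lay at 0.036 to 0.074: Mcm6 and Hspa4 for Sox2, Psat1 and Morc1 for Nanog, Mest and B9d1 for Klf4, Coil and Xrcc5 for Esrrb, Ruvbl2 and Nop14 for Zfp42, Sgo1 and Ppp3cb for Tfcp2l1, and Nfatc2ip and Ufd1 for Tbx3. Over the 8 libraries without Sin3a knockdown replicate 3, a choice made after seeing the data, other genes came closest: Map7d2 (0.116) for Prdm14 and Zfp428 (0.065) for Klf2.

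Sequence shared with other genes was limited for most of the set. Of the 50-base stretches of the longest transcript, 9.17% occurred in transcripts of another gene for Zfp42 (the pseudogene Zfp42-ps1) and 4.67% for Nanog (among them Nanog-ps1). The share was at most 0.99% for the other 8 factors, so Zfp42 and Nanog carry the larger uncertainty from reads of copies. On the same strand 130 exon bases of Tfcp2l1 overlapped Gm23497, which held 0 reads in every library. On the opposite strand 317 exon bases of Pou5f1 overlapped Gm19553, which held 3 to 22 reads per library, and 115 exon bases of Tbx3 overlapped Tbx3os1, which held 6 to 26. The tables carry the mark of featureCounts' reverse-strand setting. How reads with several matches were treated is not given in the sources used here.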

How the data were processed

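Per the labels' protocols, total RNA was made into TruSeq stranded libraries and read as 50-base single ends. Per the submitters' processing notes, reads were handled with STAR 2.4.0j, Picard and featureCounts of Subread. The authors deposited raw counts per Ensembl gene, 1 table per library, and per the file headers duplicate reads had been removed. The build and annotation used for counting are not given in the sources used here. Symbols, positions, exon lengths and GC content of the longest transcript came from GENCODE M21 (GRCm38), matched by ID for 32937 of 37990 genes and at least 99.35% of reads.

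Counts were fitted in R 4.3.3 with edgeR 4.0.16 (limma 3.58.1): filterByExpr, TMM scaling, 1 model of 3 groups over 9 libraries, and robust quasi-likelihood tests with Benjamini-Hochberg adjustment over 14465 genes. Calls used an adjusted p under 0.05. Every p for a gene is from this fit unless another is named, such as the replicate block, fewer libraries, the alternative fits or DESeq2 (1.42.0). P-values measure the spread between these libraries. Log CPM used a prior count of 2. The biological coefficient of variation was 0.25. The fit was tested on simulated data.

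Deviations from group means correlated by 0.178 to 0.622 in 9 of 9 pairs of same-numbered libraries, and by -0.448 to 0.113 in pairs of unlike number. These correlations run over genes and carry no test. The numbers were therefore taken to pair the samples. The main fit of 9 libraries carries no replicate block, so its p-values leave this pairing out. Results with the replicate block are given where they change a call of a factor or the count of a list against the controls. The members and lists were chosen with earlier results of these data known. Named genes are the 10 factors, both targets, up to 3 genes per direction with the smallest adjusted p of each network list (naive, general, LIF and STAT3, primed, repressed by Prdm14), and the 2 genes most like each factor. Other genes named were chosen after their values were seen. The marker lists were primitive endoderm, trophectoderm, primitive streak, neuroectoderm (1 entry not analysed here) and fibroblast.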

Additional observations from a re-analysis of the deposited data

How the results depend on the processing

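The genes called in the Fam60a knockdown numbered 1181 with DESeq2, 887 with the replicate block, 1827 on its own 6 libraries, 706 with a GC correction and 1653 with that correction and the block, against 423, and 11 to 2495 without 1 library. In the Sin3a knockdown they numbered 2507 with DESeq2, 739 on its own 6 libraries and 3259 with GC correction and block, against 1475, and 521 to 3606 without 1 library. Between the knockdowns they numbered 1332, 672, 0, 821 and 1509 with DESeq2, block, own 6 libraries, GC correction, and correction with block, against 443, and 48 to 2166 without 1 library. The count of 0 is from edgeR, with 1760 genes at an unadjusted p under 0.05. Of the 10 factors, 2 were called in the Fam60a knockdown with DESeq2 and 2 on its own 6 libraries (Klf2 and Prdm14), and 0 to 3 without 1 library. In the Sin3a knockdown 3 were called with DESeq2 (Klf2, Prdm14, Tbx3), 2 with the block, 2 with GC correction, 2 with both and 0 on its own 6 libraries, and 0 to 3 without 1 library. Between the knockdowns 0 to 2 were called without 1 library. In 2 settings chosen after seeing the data, Sin3a knockdown replicate 3 was left out as well. With the block the counts were then 5842, 6975 and 5321 genes (39.6, 47.3 and 36.1%) and 7, 3 and 4 factors, and with the GC correction 2514, 3463 and 1968 genes and 3, 3 and 1 factors, in the order Fam60a knockdown, Sin3a knockdown and between them. The 7 were Sox2, Nanog, Klf4, Klf2, Zfp42, Prdm14 and Tbx3.

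Some log2 fold changes changed sign. In the Fam60a knockdown, Pou5f1 (-0.04) became 0.00 with no filter and ranged from -0.08 to 0.02 without 1 library. Tfcp2l1 (0.00) became 0.04 with no filter, 0.01 on the 6 libraries and 0.01 with the block without replicate 3, and ranged from -0.05 to 0.08. In the Sin3a knockdown, without replicate 3, Klf4 (-0.07) became 0.11 with the block and 0.25 with GC correction, Zfp42 (0.17) became -0.05 and -0.13, and Esrrb (-0.18) became 0.01 with GC correction. Without 1 library Klf4 ranged from -0.20 to 0.16 and Zfp42 from -0.05 to 0.31. Between the knockdowns Esrrb (0.04) became -0.04 and -0.14 under these settings. Without 1 library Esrrb ranged from -0.05 to 0.10, Nanog from -0.26 to 0.05 and Klf4 from -0.36 to 0.01. The cause was not tested, except that fewer libraries entered some fits. Prdm14, Klf2 and Tbx3 kept their direction against the controls in all 18 alternatives. A floor of 3 reads was 0.385 to 1.22 CPM, covering counting error only, and all 10 factors had at least 60 reads in every library.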

Other observations

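Some genes often listed with the naive state were low in these cultures, and they were chosen here after their values were seen. Dppa3 (Stella), a maternal factor that protects against DNA demethylation, held 5, 9 and 30 reads in the 3 Fam60a knockdown replicates (1 to 3) and 3, 4 and 7 in those of the Sin3a knockdown, against 5, 13 and 25 reads in the controls. As CPM these were 0.755, 1.16 and 4.74, then 0.457, 0.743 and 2.84, against 0.815, 1.88 and 3.73, so replicate 3 was the highest of its group in all 3 groups. Prdm14 had the opposite order, with replicate 3 the lowest of its group in all 3. Tdh, a threonine dehydrogenase used by mouse embryonic stem cells, held 10, 19 and 13 reads in Fam60a knockdown cells and 6, 12 and 6 in Sin3a knockdown cells, against 9, 26 and 22 in the controls. Neither gene passed the edgeR test in either knockdown (adjusted p of 1 and 0.557 for Dppa3, and 0.766 and 0.415 for Tdh, in the Fam60a and the Sin3a knockdown).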
